A study of Mus musculus with 6 samples.

Results

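The genes described here encode the core machinery of macroautophagy and its cargo receptors. They are 50 genes named by their function, from the kinase complex that starts an autophagosome to the tethers that join it to the lysosome. All 50 were found in the deposited gene table with a completed test, out of 11478 tested genes. RNA was sequenced from whole pancreas of 6 untreated male mice aged 3 weeks, 3 wild type and 3 that lack OCaR1 (OCaR1-/-, called the knockout). OCaR1 is another name of Tmem63a, which spans the membrane of acidic organelles; that the names belong together is background knowledge. Both groups carry the C57Bl6/N background (written C56Bl6/N in the strain field), and neither carried another allele or agent according to the labels. How the allele was made, and whether the mice were littermates, is not given in the sources used here.

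In macroautophagy a flat membrane grows around a portion of cytoplasm, closes into a double-membrane autophagosome and fuses with a lysosome, where the contents are degraded. The ULK1 kinase complex starts the process, a class III phosphatidylinositol 3-kinase complex marks the membrane, and 2 ubiquitin-like conjugation systems attach proteins of the LC3 and GABARAP families to its lipids. Cargo receptors bind both these proteins and the material to be removed. Acinar cells of the pancreas make large amounts of secretory protein, and autophagy is known to clear damaged organelles and zymogen granules in them; its failure is a known feature of pancreatitis.

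The table gives 1 FPKM value (fragments per kilobase of transcript, adjusted for sequencing depth) for each genotype, which combines the 3 mice. No value of a single mouse, no SD and no read count stands behind a level here, and the depth is unknown. Whether a difference exceeded the spread between mice therefore rests on the authors' Cuffdiff test, and the verbs rise and fall, and the word called, are kept for genes whose q-value in the authors' deposited table was under 0.05. Differences are given as log2(knockout FPKM / wild-type FPKM), so that negative values are lower in the knockout. The 7 tested acinar markers, which define the main cell of the labelled tissue, lay between 7662 and 36063 FPKM in the knockout and between 8898 and 36474 FPKM in wild type. The targeted gene Tmem63a had 26.8% of its wild-type level in the knockout (4.91 and 18.3 FPKM, the authors' deposited table gives q = 0.00152).

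In the deposited FPKM, RNA of the autophagy machinery differed little between the genotypes. Of 50 members, Cuffdiff called 0 higher and 1 lower, the kinase gene Ulk1, where 4.20% of all tested genes were called higher, 3.35% lower and 7.54% in either direction. At that share a single step of 5 to 10 genes would hold few calls or none, so a count of 0 in a step says little. At an unadjusted p under 0.05 there were 3 members (6.0%), Ulk1, Atg3 and Atg4d, all lower, beside 17.5% of all tested genes. The median member difference was -0.05, beside -0.03 over all tested genes. The sizes were small too: as deposited, 27 of 50 members (54.0%) lay within 0.1 of 0 on the log2 scale. The share was 30.2% for all tested genes and 31.5% for the 10029 tested protein-coding genes in the members' range of level. How many members lie within 0.1 depends on the scaling, as the counts beyond 0.1 below show. The widest difference of any member was 1.44-fold. Every member was detected in both groups, the lowest value being that of Atg14 at 1.07 FPKM in the knockout and the highest that of Gabarap at 188 FPKM. The deposited rows all have a larger FPKM of at least 1.00, so detection in at least 1 group was given beforehand.

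**Figure D1:**
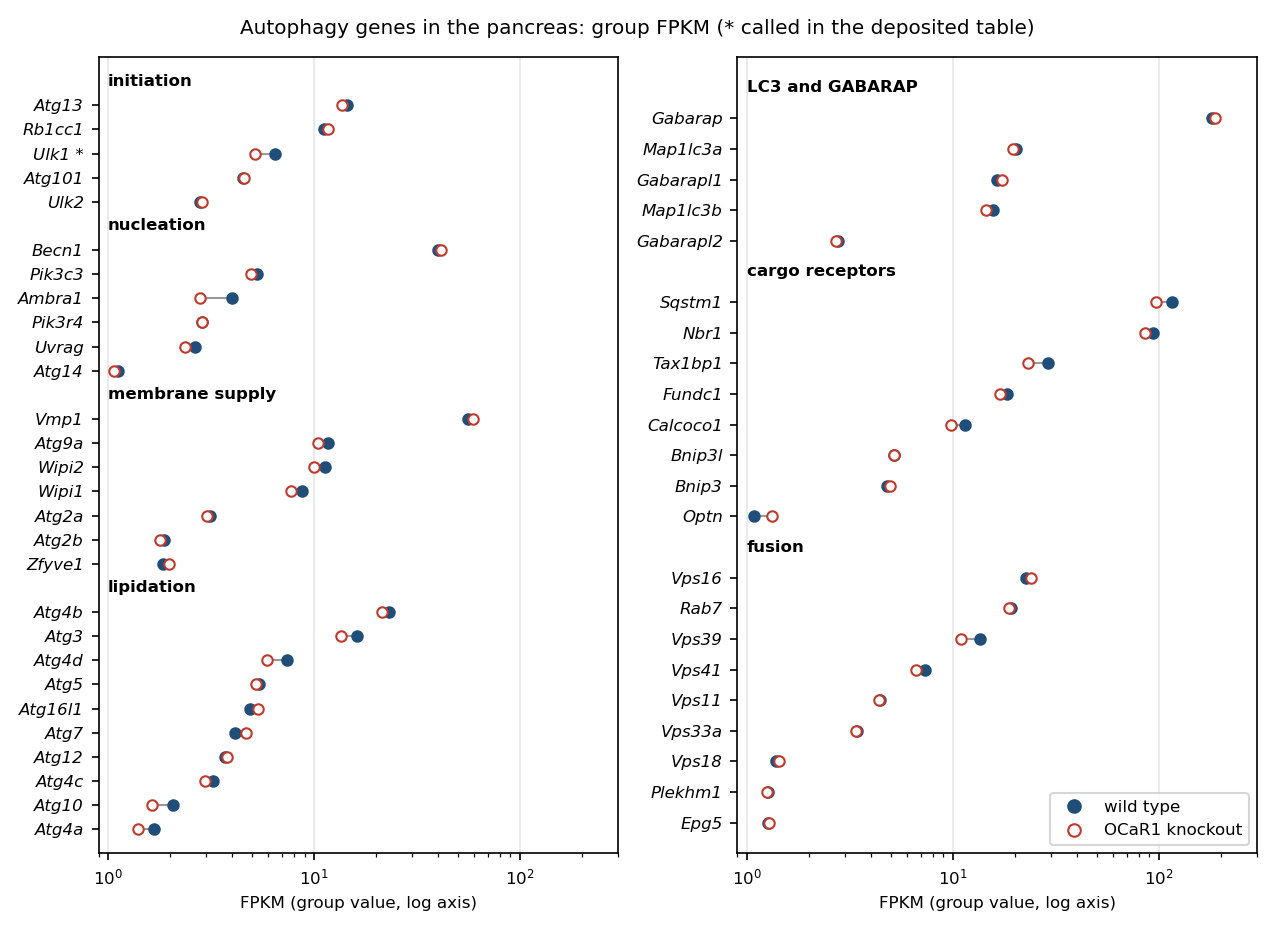
FPKM of each of the 50 autophagy genes on a log axis, grouped by step, with filled points for the wild-type group value and open points for the knockout group value. Most pairs nearly coincide, while levels between genes span from 1.07 FPKM (Atg14) to 188 FPKM (Gabarap).

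More members lay below than above their wild-type level, by a margin that depended on the scaling. Of the members, 33 lay below and 17 above their wild-type level, and 55.2% of all tested genes lay below. This count moves with the scaling: relative to the median of all tested genes 28 members lay below. With FPKM rescaled to equal sums over genes other than digestive enzymes, 49 members did, beside 78.1% of all tested genes. Of members that differed by more than 0.1, 20 were lower and 3 higher, beside 4438 lower and 3553 higher among all tested genes. Relative to the median of all tested genes, 15 members were lower by more than 0.1 and 8 higher, beside 3853 and 4001 of all tested genes. With the rescaling to genes other than digestive enzymes, 47 members were lower by more than 0.1 and 1 higher, beside 7808 and 1737 of all tested genes. The closeness of the members to 0 thus held for the deposited scale and was lost with that rescaling. The 3 that were higher as deposited were Atg7, Atg16l1 and the receptor gene Optn, and none of them was called. After the rescaling without enzymes, Atg7 stood at -0.01, Atg16l1 at -0.07 and Optn at 0.11. By level, 0 of 22 members whose larger value was under 5 FPKM were called, where 6.53% of all tested genes of that level were. Between 5 and 20 FPKM 1 of 19 was called, beside 7.97%, and from 20 to 200 FPKM 0 of 9, beside 9.33%.

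Initiation rests on ULK1 or its paralog ULK2, held in a complex with ATG13, ATG101 and the scaffold FIP200 (encoded by Rb1cc1). Ulk1 (ENSMUSG00000029512, protein-coding) lies on the minus strand of GRCm38 chromosome 5, from 110784488 to 110810097. It stood at 5.17 FPKM in the knockout against 6.44 in wild type. It fell 1.24-fold (log2 difference -0.32, the authors' deposited table gives q = 0.0368). A change of this size was seldom called: of 1397 tested genes whose difference in either direction was within 0.05 of that of Ulk1, 82 (5.87%) were. Ulk2 stood at 2.87 FPKM in the knockout against 2.81 in wild type. Ulk1 thus made up 64.4% of the summed FPKM of both kinase genes in the knockout and 69.6% in wild type.

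The other genes of the kinase complex lay close together in both genotypes. Atg13, which binds the kinase, had 13.6 FPKM in the knockout against 14.4 in wild type. Rb1cc1 had 11.7 and 11.2 FPKM, and Atg101, which stabilises ATG13, 4.60 and 4.51 FPKM, the knockout first. Ulk2 and these 3 partner genes differed by between -0.08 and 0.07 on the log2 scale, and their q-values in the authors' deposited table lay at 0.858 or above. No other gene of the complex differed as much as Ulk1, and the difference between these genes was not tested.

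The sequence in front of Ulk1 is shown because it is the called member. Below are the 250 bases that precede its RefSeq start, 5′ to 3′ on the minus strand (RefSeq, GRCm38.p6, chr5:110810082-110810331). GENCODE M21 counts the last 16 of them as exon of Ulk1, and the rest lies outside its exons. Capitals mark GC boxes (GGGCGG on either strand, of which all those shown read CCGCCC).
Ulk1: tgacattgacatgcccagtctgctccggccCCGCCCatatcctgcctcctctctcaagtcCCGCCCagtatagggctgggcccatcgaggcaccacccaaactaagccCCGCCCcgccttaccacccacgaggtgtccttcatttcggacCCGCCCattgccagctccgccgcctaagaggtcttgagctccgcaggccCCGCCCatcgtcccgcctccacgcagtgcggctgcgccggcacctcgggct
This stretch holds 5 GC boxes and is 67.2% G or C. Such boxes are common: 70.0% of the 40 members with a window of 300 bases (250 before and 50 after the start) hold at least 1, as do 70.3% of the 8127 tested genes with such a window and 38.2% of all 27025 genes with one. The Ulk1 window held no CACGTG (the E-box), TGATGCAA (known for ATF4 with C/EBP factors) or TTGTTTAC (known for FoxO factors) on either strand. The last 2 of these were in 0 of the 40 member windows, beside 0.824% and 1.01% of the tested genes with a window. At those shares 40 windows would hold few such sites or none, so a count of 0 says little.

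Whole pancreas holds several cell types, and their markers differed between the same groups; fewer cells of a type and less RNA per cell cannot be told apart in such samples. Beside the lower Ulk1, 11 of 12 tested islet markers were called higher (summed level 4133 FPKM in the knockout against 2575 in wild type), 10 of 11 macrophage markers (153 and 81.2 FPKM), 7 of 9 fat cell markers (215 and 103 FPKM), 6 of 10 fibroblast and stellate cell markers (532 and 398 FPKM) and 5 of 8 endothelial markers (61.0 and 46.9 FPKM). Smooth muscle went the other way, with 6 of 7 markers called lower (47.9 and 94.5 FPKM). Of 6 tested duct markers 1 was called, higher (237 and 219 FPKM), and of 7 acinar markers 1, Pnlip, lower. No tested marker was at 0, the lowest being Cnn1 of smooth muscle at 0.307 FPKM in the knockout. The part of these cells in the level of Ulk1, or of any other member, was not tested.

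Nucleation is the work of the lipid kinase VPS34 (Pik3c3), its regulatory subunit VPS15 (Pik3r4), beclin 1 (Becn1) and either ATG14 or UVRAG; AMBRA1 links beclin 1 to the ULK1 complex. Of these 6 genes Cuffdiff called 0, with 0 at an unadjusted p under 0.05 and a median difference of -0.08. Becn1 was by far the most abundant, at 41.2 FPKM in the knockout against 39.9 in wild type. It made up 78.5% and 77.0% of the summed FPKM of the lipid kinase subunits, on an interval it shares with Coa3, so reads of the neighbours could be divided between them. Atg14, the subunit that directs the complex to autophagosomes, was the scarcest, at 1.07 and 1.12 FPKM in knockout and wild type. Pik3c3 had 4.95 and 5.29 FPKM, Pik3r4 2.86 and 2.85 FPKM, and Uvrag 2.38 and 2.66 FPKM, in the same order.

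Ambra1 had the widest difference of all members and was not called. It stood at 2.79 FPKM in the knockout against 4.01 in wild type, which is 1.44-fold lower (the authors' deposited table gives q = 0.50). Of 478 tested genes whose difference in either direction was within 0.05 of that of Ambra1, 153 (32.0%) were called. A gene of that size without a call is thus not unusual in this table. Its neighbour Atg13, 19.6 kb away on chromosome 2, differed by -0.08.

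Growth of the membrane needs lipid supply through ATG2 and the scramblase ATG9A, the phosphoinositide-binding WIPI proteins, and VMP1, an endoplasmic reticulum protein known for its induction in acute pancreatitis. Of 7 genes Cuffdiff called 0 (0 at an unadjusted p under 0.05), and the median difference was -0.07. Vmp1 led in level, with 58.9 FPKM in the knockout against 56.1 in wild type, on an interval it shares with Gm11478. Atg9a had 10.5 and 11.6 FPKM on an interval it shares with 4 other rows. Wipi1 and Wipi2 lay lower by nearly the same amount, at 7.71 and 8.73 FPKM for Wipi1 and 9.96 and 11.3 FPKM for Wipi2, the knockout first. The scarcest were Atg2a (3.03 and 3.11 FPKM), Atg2b (1.79 and 1.88 FPKM) and Zfyve1 (1.97 and 1.85 FPKM), whose product DFCP1 marks the sites where autophagosomes form.

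Most conjugation genes lay below wild type without a call. ATG7 and the transfer enzymes ATG3 and ATG10 pass ubiquitin-like proteins on, ATG12, ATG5 and ATG16L1 form the conjugate that places LC3 on the membrane, and the ATG4 proteases prepare and remove LC3. Of 10 genes 7 lay lower and 3 higher, with a median difference of -0.12. Cuffdiff called 0, and 2 were at an unadjusted p under 0.05. Atg3 had 13.5 FPKM in the knockout against 16.3 in wild type (the authors' deposited table gives q = 0.105). Atg4d had 5.93 and 7.42 FPKM (the authors' deposited table gives q = 0.179), on an interval it shares with Kri1. Atg10 followed at 1.63 and 2.07 FPKM (the authors' deposited table gives q = 0.298).

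The E2-like enzyme genes Atg3 and Atg10 thus both lay lower without a call. The E1-like gene Atg7 lay higher, at 4.67 FPKM in the knockout against 4.13 in wild type (the authors' deposited table gives q = 0.842). Its side depended on the scaling, with -0.01 on the log2 scale after the rescaling without enzymes. The difference between these enzyme genes was not tested. The conjugate genes showed no common direction. Atg5 had 5.22 and 5.41 FPKM, Atg12 3.79 and 3.72 FPKM, and Atg16l1 5.33 and 4.91 FPKM in knockout and wild type, the last on an interval it shares with Gm25395. All 4 protease genes lay below wild type, Atg4a at 1.40 and 1.68 FPKM, Atg4b at 21.4 and 23.1 FPKM (interval that it shares with Thap4) and Atg4c at 2.96 and 3.22 FPKM besides Atg4d. Atg4b, which encodes the main LC3 protease, made up 67.5% of their summed FPKM in the knockout and 65.2% in wild type.

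**Figure D2:**
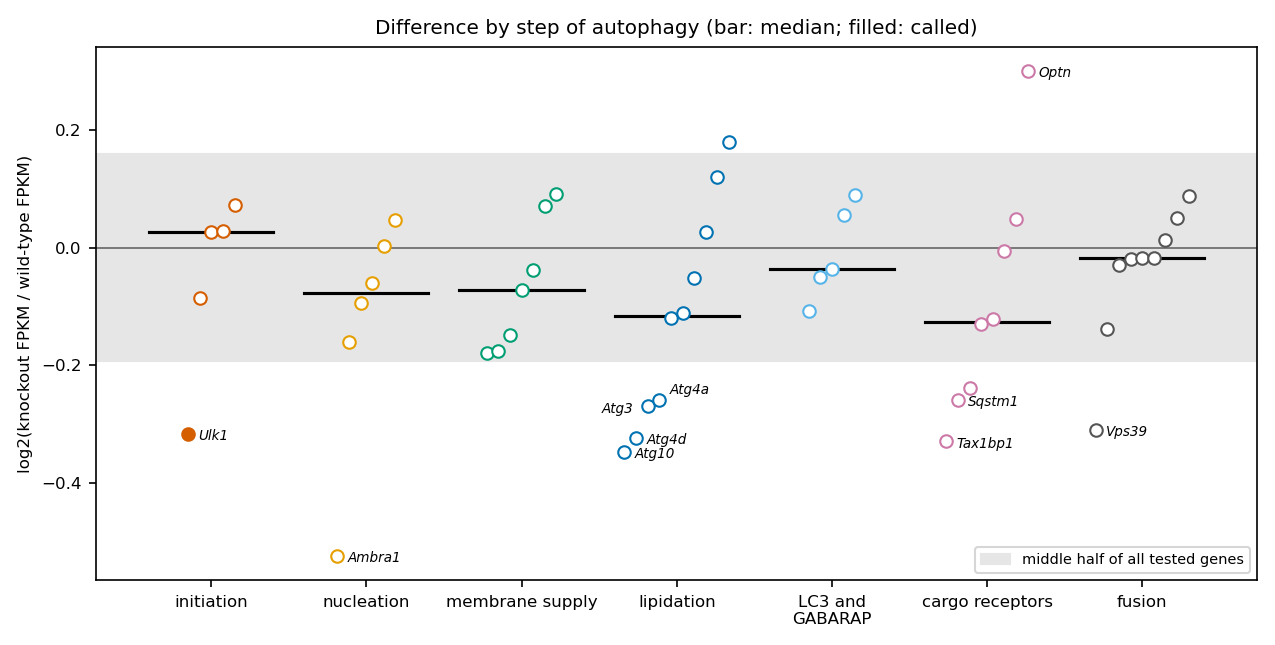
Difference between knockout and wild type on the log2 scale for each of the 50 genes, by step; black bars are step medians, the grey band spans the 25th to 75th percentile of all tested genes, and the filled point is the called gene, Ulk1. The medians run from -0.13 (cargo receptors) to 0.03 (initiation), and the widest single difference is that of Ambra1 at -0.52.

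The substrates of conjugation were led by GABARAP and scarcely differed. Gabarap had 188 FPKM in the knockout against 181 in wild type, 77.6% and 76.7% of the summed FPKM of the 5 LC3 and GABARAP genes. Map1lc3a had 19.6 and 20.3 FPKM, Gabarapl1 17.4 and 16.3 FPKM, Map1lc3b 14.5 and 15.6 FPKM and Gabarapl2 2.71 and 2.78 FPKM, the knockout first. The summed level was 242 FPKM in the knockout against 236 in wild type. Of these genes Cuffdiff called 0 (0 at an unadjusted p under 0.05), and their differences ran from -0.11 to 0.09 with a median of -0.04. Map1lc3b encodes LC3B, the usual protein marker of autophagosomes. Its row stands for an interval of 4435 kb on chromosome 8 shared with 58 other rows, so its value is the least certain of the 5. Transcript levels of these genes do not measure the lipidated protein.

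Cargo receptors had the lowest median of the 7 steps, -0.13, without a call. Lipidation was close, at -0.12. Among genes with an interval of their own the medians were -0.121 for cargo receptors and -0.119 for lipidation. The order of the steps was not tested. Cuffdiff called 0 of 8, with 0 at an unadjusted p under 0.05. Sqstm1, which encodes the ubiquitin-binding receptor p62, had 96.7 FPKM in the knockout against 116 in wild type (the authors' deposited table gives q = 0.348), on an interval it shares with 3010026O09Rik. Its relative Nbr1 had 85.5 and 93.6 FPKM (the authors' deposited table gives q = 0.910). These 2 genes made up most of the receptor RNA: Sqstm1 39.7% in the knockout and 41.4% in wild type, and Nbr1 35.1% and 33.5%.

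Other ubiquitin-binding and LC3-binding receptors went both ways without a call. Tax1bp1 had 23.2 FPKM in the knockout against 29.1 in wild type (the authors' deposited table gives q = 0.493). Calcoco1, which acts in selective autophagy of the endoplasmic reticulum and Golgi, had 9.77 and 11.5 FPKM (the authors' deposited table gives q = 0.404). Optn (optineurin) was the scarcest receptor and the member with the widest difference upward, at 1.33 and 1.08 FPKM (the authors' deposited table gives q = 0.617). Bnip3, Bnip3l and Fundc1, whose products are receptors of mitochondria, lay closer to wild type than Tax1bp1, Calcoco1 and Optn. Bnip3 had 4.97 and 4.80 FPKM, Bnip3l 5.18 and 5.20 FPKM, and Fundc1 17.0 and 18.4 FPKM in knockout and wild type. Fundc1, at -0.12 on the log2 scale, was nearly level with Nbr1 at -0.13. Fkbp8, a mitochondrial receptor gene of the wider list given below, differed by -0.19. Summed over the 8 genes, receptor RNA stood at 244 FPKM in the knockout against 279 in wild type; this sum was not tested.

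**Figure D3:**
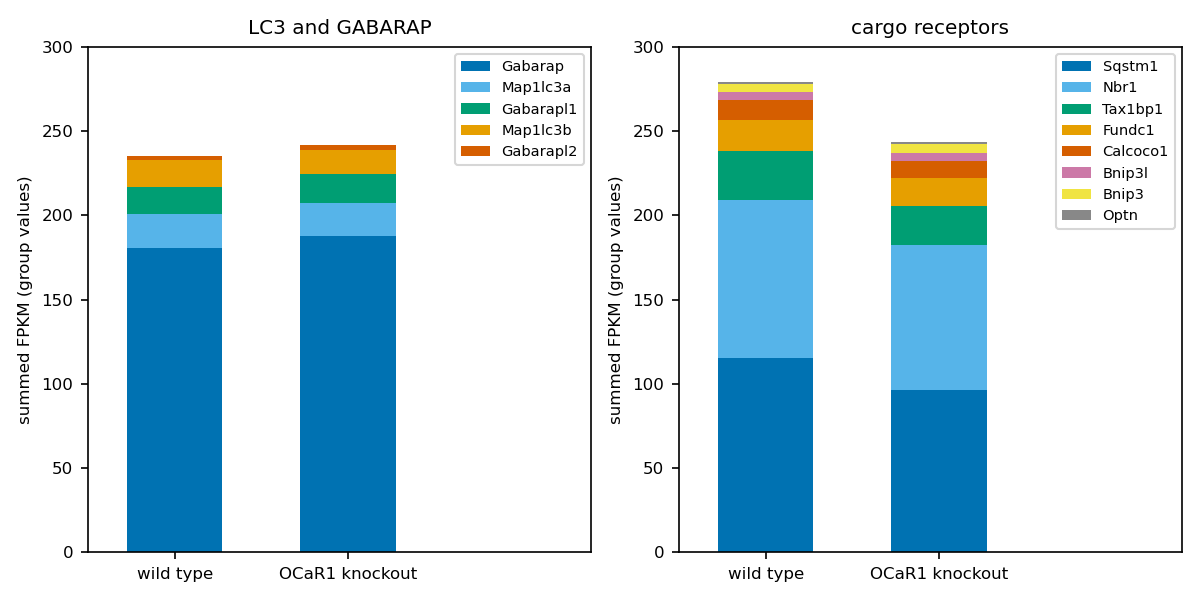
Stacked FPKM of the 5 LC3 and GABARAP genes (left) and the 8 cargo receptor genes (right) in each genotype, 1 group value per gene without error. The LC3 and GABARAP stack reaches 236 FPKM in wild type and 242 FPKM in the knockout, and the receptor stack 279 and 244 FPKM.

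Most fusion genes lay close to their wild-type level. RAB7 and the HOPS complex (VPS11, VPS16, VPS18, VPS33A, VPS39 and VPS41) tether the autophagosome to the lysosome, with PLEKHM1 and EPG5 as adaptors. Of 9 genes 7 lay within 0.1 of 0, the median was -0.02, and Cuffdiff called 0 (0 at an unadjusted p under 0.05). Rab7 had 18.8 FPKM in the knockout against 19.2 in wild type. Vps16 was the most abundant HOPS gene at 24.0 and 22.6 FPKM, on an interval it shares with Pced1a, and Vps18 the scarcest at 1.43 and 1.38 FPKM. Vps11 had 4.37 and 4.43 FPKM, Vps33a 3.38 and 3.42 FPKM and Vps41 6.66 and 7.33 FPKM, in the same order. Plekhm1 had 1.26 and 1.27 FPKM, and Epg5 1.28 and 1.26 FPKM. The exception in size was Vps39, at 10.9 and 13.6 FPKM, 1.24-fold lower (the authors' deposited table gives q = 0.910). Vps39 and Ulk1 thus had differences of nearly the same size, -0.31 and -0.32, of which the second was called.

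Some members hold an E-box near their start. CACGTG is the core of the site bound by TFEB and its relatives, which are known to control lysosome and autophagy genes; the longer form with GT before and AC after it is known as the CLEAR element. Of 40 members with a RefSeq promoter window, 7 (17.5%) held CACGTG, beside 12.2% of the tested genes and 8.09% of all genes with a window. The CLEAR element, a palindrome that always holds CACGTG, was found in 2 members (5.0%), beside 0.874% of the tested genes and 0.370% of all genes with a window. Those 2 are the HOPS genes Vps16 and Vps33a. A share that rests on 2 genes is uncertain, and no difference in share from the other genes was tested. The stretches around each CACGTG that lies before the start are printed 5′ to 3′ on the strand of the gene (RefSeq, GRCm38.p6), with CACGTG in capitals, to show how the sites are placed. Atg14 is the seventh gene, and its site does not lie wholly before the start and is not printed.
Vps16 (chr2:130424292-130424317): gcggcctcgtCACGTGaccccgaagg
Vps33a (chr5:123573016-123573053): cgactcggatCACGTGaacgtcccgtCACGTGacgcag
Atg3 (chr16:45158725-45158773): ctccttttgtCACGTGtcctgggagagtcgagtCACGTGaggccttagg
Atg7 (chr6:114670954-114670979): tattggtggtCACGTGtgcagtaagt
Atg5 (chr10:44268315-44268338): gagcgcttgcCACGTGgtcttggt
Bnip3 (chr7:138909599-138909624): gcacgcgccgCACGTGccacacgctc
Vps33a and Atg3 each hold 2 such sites, beginning 28 and 12 bases before the start in Vps33a and 94 and 71 bases before it in Atg3. In GENCODE M21 the stretch of Vps16 lies in an exon of its neighbour Pced1a, that of Vps33a overlaps an exon of Vps33a by 23 bases, and that of Atg7 lies in an intron of a longer Atg7 transcript. The other 3 lie in no annotated gene. None of these 7 genes was called; the differences were 0.09 for Vps16, -0.02 for Vps33a, -0.27 for Atg3, 0.18 for Atg7, -0.05 for Atg5, 0.05 for Bnip3 and -0.06 for Atg14. A match of letters is no evidence of binding, and no binding was measured here.

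Genes that act around this core were read from a wider list. This list of 57 names covered upstream kinases, further membrane genes, further receptors and the fusion SNAREs, and 52 of these were tested. Calls in the authors' deposited table numbered 5, of which 2 were higher and 3 lower, or 9.62% of the tested list, beside 7.54% of all tested genes, so the share lay near that background. Among the 30 with at least 5 FPKM, 3 were called, since Prkaa2 and Sesn2 lie under that level in both groups. The list median was -0.09. Of the 5 called genes, 4 belong to the 19 upstream signalling genes (21.1% of these, beside 7.54% of all tested genes). Among those 4 are the low-level genes Prkaa2 and Sesn2.

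Upstream of ULK1 stand mTORC1, which inhibits it when amino acids are plentiful, and AMPK, which activates it when energy is low. Prkaa2, the gene of the AMPK catalytic subunit alpha 2, fell from 2.02 FPKM in wild type to 1.28 FPKM in the knockout (1.58-fold, the authors' deposited table gives q = 0.00152). Prkaa1, which encodes the other catalytic subunit, had 2.35 FPKM in the knockout against 2.30 in wild type. Deptor, which encodes an inhibitory partner of mTOR, fell from 18.5 to 13.3 FPKM (1.39-fold, the authors' deposited table gives q = 0.00152). The other mTORC1 genes also lay lower but were not called: Mtor at 4.04 and 4.79 FPKM, Rptor at 3.45 and 4.45 FPKM, Mlst8 at 1.16 and 1.28 FPKM, and Akt1s1 at 21.6 and 26.8 FPKM, the knockout first. Mtor, Akt1s1, Prkaa1 and Tsc2 each share their interval with other rows, so reads of neighbours could be divided between them.

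Of the 3 sestrin genes, whose products restrain mTORC1, 1 rose and 1 fell. Sesn1 rose from 13.1 FPKM in wild type to 18.6 FPKM in the knockout (1.42-fold, the authors' deposited table gives q = 0.00152). Sesn2, known as a stress-induced sestrin, fell from 3.39 to 2.21 FPKM (1.53-fold, the authors' deposited table gives q = 0.00152). Sesn3 had 1.18 FPKM in the knockout against 1.34 in wild type and was not called. Of the other upstream genes with the smallest p-values, Tsc2 (4.06 and 4.75 FPKM) and the AMPK gamma subunit gene Prkag1 (8.52 and 9.52 FPKM) were not called.

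Among 14 further receptor genes 1, Fam134b, was called (7.14%), a share near the 7.54% of all tested genes. Fam134b (now Retreg1) encodes a receptor for autophagy of the endoplasmic reticulum and rose from 52.9 FPKM in wild type to 68.5 FPKM in the knockout (1.30-fold, the authors' deposited table gives q = 0.0269). Another receptor of the same kind, Ccpg1, stood on the other side, at 44.4 FPKM in the knockout against 53.5 in wild type (the authors' deposited table gives q = 0.183, on an interval it shares with other rows). Sec62 and Rtn3, which also encode such receptors, differed by 0.02 each. Pink1, a kinase of mitophagy, had 18.97 and 22.3 FPKM (the authors' deposited table gives q = 0.177), Tollip 9.19 and 10.5 FPKM, and Fkbp8, a mitochondrial receptor, 47.3 and 53.8 FPKM. Pink1, Fkbp8 and Rtn3 share their intervals with other rows too.

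Neither of the remaining groups held a call, beside 7.54% of all tested genes. At that share, groups this small would hold few calls or none. Of 11 further membrane and conjugation genes Cuffdiff called 0 (0 at an unadjusted p under 0.05). Tmem41b, which encodes a scramblase that acts with VMP1, had 6.75 FPKM in the knockout against 5.30 in wild type (the authors' deposited table gives q = 0.324). Atg16l2 had 3.80 and 2.62 FPKM (the authors' deposited table gives q = 0.420), Bcl2, an inhibitor of beclin 1, 0.909 and 1.06 FPKM, and Wdr45 13.2 and 15.2 FPKM. Of 8 further fusion genes Cuffdiff also called 0 (0 at an unadjusted p under 0.05). The autophagosomal SNARE gene Stx17 had 3.70 and 3.05 FPKM, its lysosomal partner Vamp8 57.5 and 57.1 FPKM, Ykt6 20.96 and 22.7 FPKM, Rab2a 37.3 and 40.3 FPKM, and Arl8b, a lysosomal GTPase gene, 11.8 and 13.2 FPKM.

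**Figure D4:**
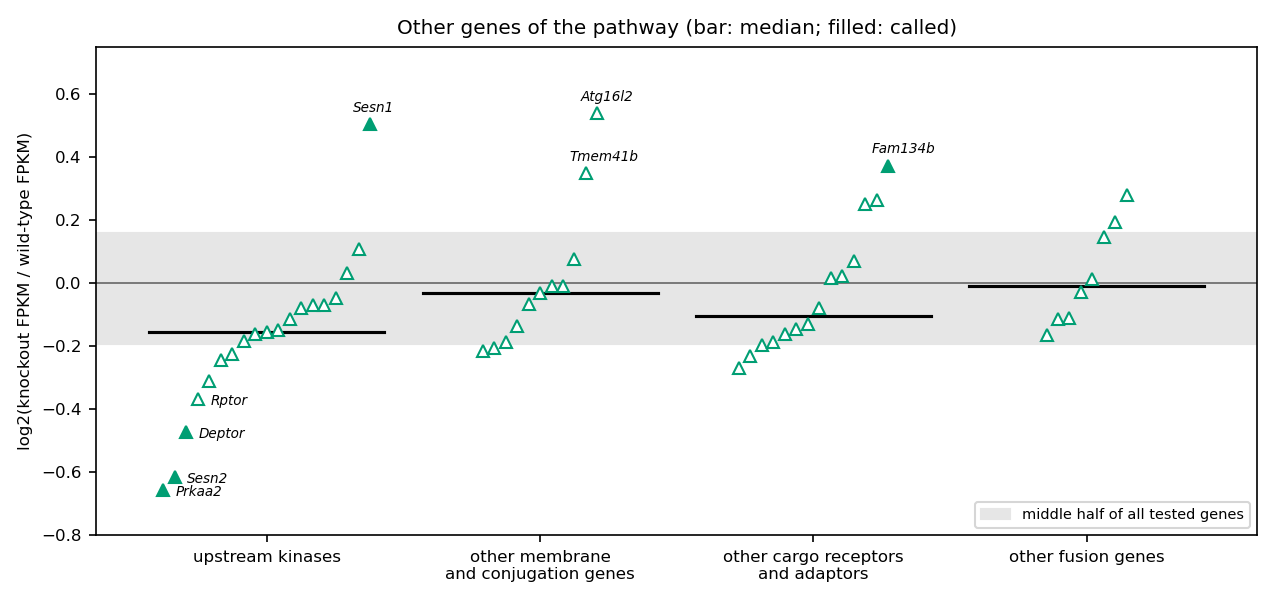
Log2 difference between knockout and wild type for the 52 tested genes of the wider list in its 4 groups; black bars are medians, the grey band spans the 25th to 75th percentile of all tested genes, and filled triangles are called genes. Of the 5 called genes, Prkaa2, Sesn2 and Deptor lie below 0 and Sesn1 and Fam134b above it.

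**Figure D5:**
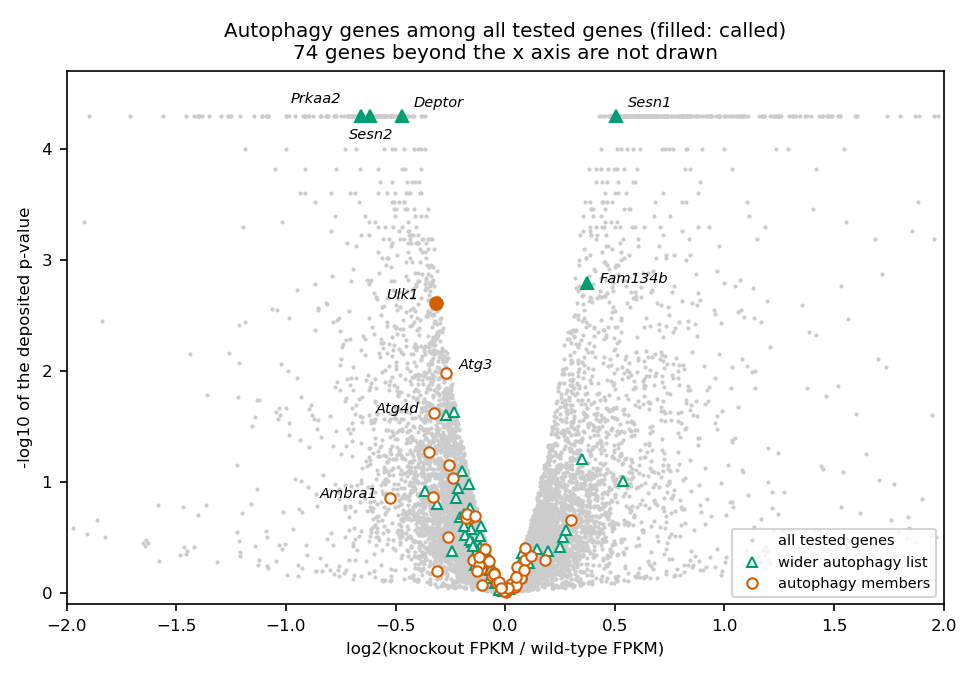
Each tested gene by its log2 difference and by -log10 of its deposited p-value, with the 50 autophagy members as circles, the wider list as triangles and called genes filled; 74 genes beyond 2 on the log2 axis are not drawn. Of the members Ulk1 stands highest, and the 5 called genes of the wider list stand above it, 4 of them at the smallest deposited p.

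The members are spread over the genome, with 8 on chromosome 11, 7 on chromosome 2 and 4 on chromosome 1, which also carries Tmem63a. The 4 on chromosome 1 (Rb1cc1, Atg9a, Atg16l1 and Atg4b) lie at least 87.2 Mb from Tmem63a, and their differences ran from -0.15 to 0.12 without a call.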

How the data were processed

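Per the labels' protocols, poly(A) RNA from 2.5 µg of RNA per pancreas (RNA integrity numbers 8.20 to 9.10) was sequenced as single reads of 50 bases. The submitters' processing notes name the aligner STAR 2.5.1b, Cufflinks 2.2.1 with Cuffdiff, and build GRCm38; of the annotation release, strand use and scaling nothing is said in the sources used here. The authors deposited 1 FPKM value per genotype and gene, and the Cuffdiff p-value and q-value; columns of single samples numbered 0. The table has 12016 rows, 538 of them not tested, and in every row the larger FPKM is at least 1.00. The deposited p-value cannot go below 5e-05.

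Log2 ratios were computed from the deposited FPKM without a pseudocount (Python 3.11.15, pandas 2.3.3), and 37 tested genes with a value under 0.01 FPKM got none. The count in each list used the authors' q under 0.05; no test was added, since a planned test on single libraries needs values per mouse. Coordinates come from the deposited intervals, shifted to start at 1; 9 members share theirs. Annotation is GENCODE M21, with all 50 IDs matched. Of the members, 40 matched the RefSeq promoter table. The summary functions were tested on simulated data. The members and lists were chosen with earlier results of these data known. Named genes are all members, the called genes of the wider list and up to 4 others per group by smallest p, and a few more of it named for their family after their values were seen. P-values are those of the authors' Cuffdiff test on 3 mice per genotype, which the labels number separately. The spread between mice itself is not given, so a p-value is not a measure of it.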

Additional observations from a re-analysis of the deposited data

How the results depend on the processing

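With q under 0.01, 0 members were called, and 0 among the 20 members with at least 10 FPKM (a limit chosen after seeing the data), since Ulk1 lies at 6.44 FPKM or below. The count stayed at 1 with q under 0.1, with p-values adjusted again over all tested genes, with at least 5 FPKM and for genes with an interval of their own. Of the wider list 3 genes were called among those with at least 5 FPKM. Rescaling FPKM to equal sums over genes other than digestive enzymes shifted every log2 ratio by -0.19, taking the median of all tested genes to -0.23. The members' median became -0.24, and the step medians -0.17 (initiation), -0.27 (nucleation), -0.27 (membrane supply), -0.31 (lipidation), -0.23 (LC3 and GABARAP), -0.32 (cargo receptors) and -0.21 (fusion). Medians near 0 changed sign: initiation, 0.026 as reported, was -0.021 with equal sums over all genes and -0.085 with at least 5 FPKM; LC3 and GABARAP, -0.036 as reported, was 0.0028 with at least 5 FPKM and 0.0098 without shared intervals; fusion, -0.018 as reported, was 0.015 after centring on all tested genes. No direction is claimed for these 3 medians. No paired analysis was possible because the table holds 1 value per genotype, and leaving out single mice was not run for the same reason.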

Other observations

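The WIPI family, read across both lists after its values were seen, differed by nearly the same amount in all 4 genes: -0.18 for Wipi1, -0.18 for Wipi2, -0.20 for Wdr45 and -0.19 for Wdr45b on the log2 scale, with no call (q between 0.590 and 0.652 in the authors' deposited table). The 25th percentile of all tested genes was -0.19, close to these values. In the mTORC1 group all 5 genes (Mtor, Rptor, Mlst8, Akt1s1 and Deptor) lay below wild type, between -0.15 and -0.47, and Deptor alone was called. That direction was common: 55.2% of all tested genes lay below, as did 16 of the 19 upstream genes, which include these 5. Rheb, the GTPase gene that activates mTORC1, had 41.2 FPKM in the knockout against 45.9 in wild type, and the Rag GTPase genes Rraga and Rragc differed by -0.08 and -0.12, all 3 without a call. Of the endoplasmic reticulum receptors, Tex264 stood at 15.8 and 17.3 FPKM in knockout and wild type.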
